A study of Mus musculus with 550 samples.

Results

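The change from day 3 to day 9 in embryoid bodies (EBs, floating aggregates in which embryonic stem cells differentiate) lacking Dnmt3b was examined cell by cell. The cells compared carried the labels Dnmt3b -/- (3BKO), library batch 1, day 3 or day 9. They were retained if they had at least 50000 assigned reads, at least 2000 detected genes and at most 50% of reads from mitochondrial genes. This left 100 cells, 54 at day 3 and 46 at day 9, out of 486 retained cells in the whole series and 550 deposited. The same time contrast in wild type (WT) batch 1, with 54 cells at day 3 and 60 at day 9, served as the reference. All cells came from the E14 line of strain 129/Ola, with no transgene or drug named in the labels. Batch 2 of 3BKO at day 3 was left out because its genotype label is in doubt. The plate of the 3BKO day 3 cells used here carries the label Dnmt3a -/- in batch 2. The other mutant plate of day 3 has these labels the other way round.

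EBs were grown without the leukaemia inhibitory factor that holds stem cells in culture, and single cells were sorted into plates and amplified by a modified Smart-seq2 protocol. The study used more than 1 mutant clone and pooled EBs, but the labels name neither clone nor culture. Each genotype and day was therefore 1 library group without replicates, and no test was run and no p-value given. The 4 groups lay on 4 different plates (209 and 234 for WT, 210 and 238 for 3BKO, day 3 and day 9). Neither day nor genotype, nor the difference of the changes between genotypes, can therefore be told apart from plate.

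DNMT3B and DNMT3A are the enzymes that place new methyl groups on CpG dinucleotides as the embryo leaves the naive pluripotent state, with DNMT3L as their catalytically inactive partner. DNMT1, guided by UHRF1, copies the pattern after replication, and TET enzymes oxidise the mark. Exit from naive pluripotency silences genes such as Zfp42 and Klf4 and passes through a primed epiblast state marked by Fgf5 before ectoderm or meso-endoderm arises. Promoters of germline genes are known targets of this silencing.

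Retained cells had a median of 215104 reads and 7090 genes at day 3 and 302116 reads and 5716 genes at day 9 in 3BKO. In WT the medians were 211599 reads and 7265.5 genes, then 363538 reads and 5591.5 genes. The median mitochondrial share was 5.92% and 3.58% in 3BKO and 5.11% and 3.58% in WT. At day 9, 46 of 64 3BKO cells passed (71.9%, exact interval 59.2 to 82.4%), 17 of the others having too few reads, against 60 of 62 WT cells (96.8%). At day 3 both genotypes kept 54 of 62. Levels are CPM, the reads of a gene summed over a group and scaled to a common total over all genes, with exact 95% Poisson intervals. Log2 ratios of day 9 to day 3 are on the log2(CPM + 1) scale, which understates the change of low genes. The protocol has no molecular identifiers, so reads are not independent molecules. All intervals and limits therefore speak of counting error alone, and they are far narrower than the spread between cells.

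Genes were counted as measured when at least 20% of the cells of either day had a read, and as past 2-fold when the log2 ratio was at least 1 or at most -1. Of 10542 genes measured in 3BKO, 1344 (12.7%) were higher and 1371 (13%) lower at day 9. In WT, of 10607 genes, 1214 (11.4%) were higher and 848 (7.99%) lower. The median log2 ratio over measured genes was 0.04 in 3BKO and 0.16 in WT. Past 4-fold there were 317 higher and 353 lower genes in 3BKO against 130 and 123 in WT. Among genes measured in both, 373 were higher in both genotypes and 296 lower in both, while 31 were higher in 3BKO and lower in WT and 80 the reverse. Within this set, the genes higher in both were 32.04% of those higher in 3BKO and 33.2% of those higher in WT. Those lower in both were 23.55% of those lower in 3BKO and 39.15% of those lower in WT. Of the genes inside 2-fold in 3BKO, 8.85% were higher and 5.65% lower in WT. The opposite changes were 2.66% of the genes higher and 6.36% of the genes lower in 3BKO. The difference of the log2 ratios, 3BKO minus WT, was at least 1 for 1212 of 11138 genes (10.9%) and at most -1 for 1763 (15.8%).

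**Figure D1:**
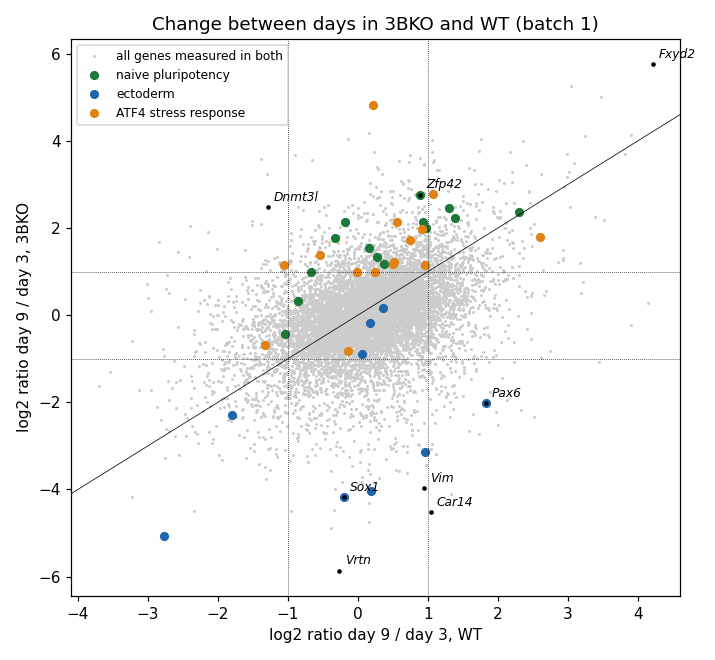
Each point is a gene measured in both genotypes, with its log2 ratio of day 9 to day 3 in WT (x axis) against that in 3BKO (y axis); dotted lines mark 2-fold, the solid line equal change, and colours mark 3 gene lists. Naive pluripotency genes lie mostly above the line and ectoderm genes mostly below it, with Dnmt3l (3.78) and Car14 (-5.56) far off on either side.

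The targeted gene was examined first. Dnmt3b (chromosome 2, GRCm38) had 166.7 CPM in 3BKO at day 3 and 15.9 at day 9, against 600.1 and 154.9 in WT. Residual reads did not vanish: after thinning every cell to 50000 reads, 61.1% of 3BKO cells at day 3 and 17.4% at day 9 had a Dnmt3b read, and 87.04% and 56.7% of WT cells. The counts are over all exons and do not show which part of the gene the reads come from. The Y-linked genes Ddx3y, Uty and Kdm5d had no read in either 3BKO group, and Eif2s3y 0.083 CPM at day 3 and 0 at day 9. In WT, Eif2s3y had 52.98 and 127.2 CPM. Xist, the RNA of the inactive X chromosome, had 11.1 and 6.77 CPM in 3BKO and 6.40 and 3.37 in WT. Both 3BKO plates thus lacked Y-linked reads almost wholly and WT plates did not, on either day.

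The promoters of 4 genes that lie at the ends of the 3BKO contrast, or are read against it below, are shown first, with each CpG in capitals. Each covers 250 bases before to 50 after the RefSeq start (GRCm38.p6), printed 5′ to 3′ on the strand of the gene. Alox12e and Dnmt3l were among the genes higher at day 9, Vrtn and Sox1 among those lower. The windows are chr11:70322481-70322780 (minus strand) for Alox12e, chr10:78042037-78042336 (plus) for Dnmt3l, chr12:84640769-84641068 (plus) for Vrtn and chr8:12395269-12395568 (plus) for Sox1.
Alox12e: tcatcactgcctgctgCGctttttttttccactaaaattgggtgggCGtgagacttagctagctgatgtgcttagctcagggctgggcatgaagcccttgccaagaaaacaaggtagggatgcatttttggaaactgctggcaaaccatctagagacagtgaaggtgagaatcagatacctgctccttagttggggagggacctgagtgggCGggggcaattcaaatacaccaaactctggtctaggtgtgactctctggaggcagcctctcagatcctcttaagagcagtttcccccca
Dnmt3l: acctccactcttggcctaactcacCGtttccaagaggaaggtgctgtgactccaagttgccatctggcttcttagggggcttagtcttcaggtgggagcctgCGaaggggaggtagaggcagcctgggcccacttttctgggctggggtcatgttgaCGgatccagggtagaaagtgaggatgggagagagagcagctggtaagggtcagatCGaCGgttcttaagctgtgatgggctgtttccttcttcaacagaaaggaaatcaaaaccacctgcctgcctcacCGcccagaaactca
Vrtn: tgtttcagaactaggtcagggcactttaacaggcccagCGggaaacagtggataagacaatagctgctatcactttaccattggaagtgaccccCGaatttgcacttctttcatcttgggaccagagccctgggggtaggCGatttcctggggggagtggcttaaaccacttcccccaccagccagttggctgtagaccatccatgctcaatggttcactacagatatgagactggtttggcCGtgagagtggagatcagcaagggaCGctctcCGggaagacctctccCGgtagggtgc
Sox1: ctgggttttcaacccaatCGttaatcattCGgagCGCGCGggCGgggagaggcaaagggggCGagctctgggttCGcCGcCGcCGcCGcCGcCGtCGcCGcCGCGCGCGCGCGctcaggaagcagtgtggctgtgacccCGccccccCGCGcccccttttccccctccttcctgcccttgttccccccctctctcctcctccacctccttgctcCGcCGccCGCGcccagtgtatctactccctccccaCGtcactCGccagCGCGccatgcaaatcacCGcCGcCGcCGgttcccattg
These windows hold 3 CpGs in Alox12e, 6 in Dnmt3l, 7 in Vrtn and 37 in Sox1. Over 27025 promoters of the same length the median was 7 CpGs and 94.2% held at least 1 (the letters CG read the same on both strands). The share of promoters with fewer CpGs was 23.9% for Alox12e, 43.6% for Dnmt3l, 47.7% for Vrtn and 94.6% for Sox1. No methylation was measured in these cells, and for Dnmt3l and Vrtn RefSeq lists 3 starts, of which 1 is shown.

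Among the methylation enzymes, the de novo pair and UHRF1 were lower at day 9 in both genotypes, while Dnmt3l moved in opposite directions. Of the 9 genes, all measured in 3BKO, 1 was past 2-fold higher and 4 lower (12.7% and 13% of all measured genes). Single 3BKO cells had 0, 0 and 471 CPM of Dnmt3l at day 3 (lowest, median and highest) and 0, 195 and 1110 at day 9. WT cells had 0, 42.98 and 922 at day 3 and 0, 0 and 478 at day 9. The ranges overlapped, but the medians crossed. Summed, Dnmt3l went from 52.2 CPM (48.2 to 56.4) to 297.6 (289 to 307) in 3BKO, a log2 ratio of 2.49 (2.33 to 2.65), and from 131.8 to 53.3 in WT (-1.29). It shares exon bases with Aire on the opposite strand.

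Dnmt3a was lower at day 9. Single 3BKO cells had 0, 491 and 2061 CPM at day 3 (lowest, median, highest) and 0, 21.8 and 480 at day 9, and no day 9 cell exceeded the day 3 median. Its log2 ratio was -2.79 in 3BKO and -1.36 in WT. Uhrf1 had -1.94 and -1.57. Dnmt1, the copying enzyme, had -0.82 and -0.41, inside 2-fold in both. Among the oxidising enzymes, Tet1 had -0.76 and -0.79, and Tet2 0.00 and 0.16. Tet3 was low, at 12.03 and 0.926 CPM in 3BKO, with 84.6% of the day 9 reads in 1 cell. Tdg, the glycosylase that removes oxidised bases, had -0.34 and -0.48.

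Naive pluripotency genes were higher at day 9 than at day 3 in 3BKO as a group. Of 16 listed, 15 were measured, 12 past 2-fold higher and 0 lower (against 12.7% and 13% of all measured genes). The median log2 ratio was 2.01, against 0.04 over all measured genes. In WT, 14 were measured, 3 higher and 1 lower (against 11.4% and 7.99%), with a median of 0.33. Zfp42 (Rex1, the classic naive reporter gene; chromosome 8, 43295063 to 43306980, GRCm38) had 0, 413 and 1255 CPM per cell at day 3 and 274, 2790 and 7893 at day 9. In WT cells it had 0, 515 and 1898, then 0, 719 and 5145. Every 3BKO cell at day 9 held Zfp42 reads after thinning, against 76.7% of WT cells. The summed log2 ratio was 2.77 in 3BKO and 0.89 in WT.

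Klf5, a Krüppel-like factor of the naive network, was higher at day 9 in 3BKO and not in WT. Single 3BKO cells had 0, 55.7 and 291 CPM at day 3 and 20.9, 360.1 and 1058 at day 9, with 97.8% of day 9 cells above the day 3 median. WT cells had medians of 63.2 and 24.8. The log2 ratio was 2.15 in 3BKO and -0.18 in WT, a difference of 2.33. Nanog, a core homeodomain factor, had cell medians of 188 and 947 CPM in 3BKO and 217 and 436 in WT, with log2 ratios of 2.23 and 1.39.

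The other members past 4-fold were Prdm14 (2.46), Tcl1 (2.38), Klf4 (2.27), Tfcp2l1 (2.13) and Fbxo15 (2.01), 1 cell holding 33.2% of the day 9 Fbxo15 reads. In WT these had 1.30, 2.31, 2.22, 0.93 and 0.97, so Tcl1 and Klf4 changed about as much there. Klf4 went from only 7.88 to 41.7 CPM in 3BKO. Dppa5a and Fgf4 had the lowest ratios of the measured members, 0.33 and -0.43. Dppa3 was not measured.

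**Figure D2:**
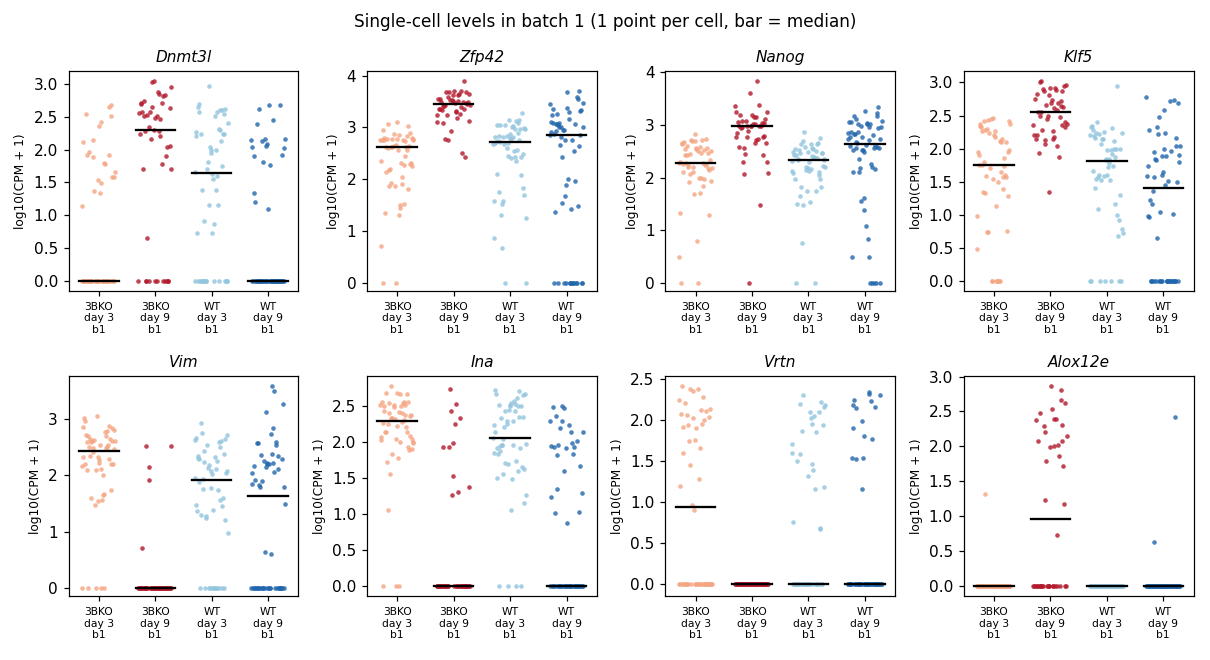
Level of 8 genes in single cells of the 4 batch 1 groups (y axis, log10 of CPM + 1; 1 point per cell, bar at the median). In 3BKO, Zfp42, Nanog and Klf5 have higher medians at day 9 than at day 3 with ranges that overlap, Ina and Vim drop to a median of 0, and Vrtn is at 0 in all 46 day 9 cells.

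Per cell, the summed level of the naive list was 225, 7430.1 and 17358 CPM in 3BKO at day 3 (lowest, median, highest) and 2832, 13812 and 35071 at day 9. In WT it was 152, 10567 and 24018, then 2.11, 7851 and 24836. The lowest 3BKO cell at day 9 was thus well above the lowest WT cell, which had almost none of these reads. A cell was counted as positive for a list when, after thinning, 3 or more of its genes had 2 or more reads. For the naive list all 46 3BKO cells were positive at day 9 (100%, 92.3 to 100%) and 52 of 54 at day 3, against 47 of 60 WT cells at day 9 (78.3%, 65.8 to 87.9%) and 51 of 54 at day 3.

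The general pluripotency list did not follow. Of its 14 measured genes, 1 was higher and 6 lower (against 12.7% and 13% of all measured genes), with a median of -0.78 (-0.66 in WT). Dppa2, which acts at CpG-rich promoters, had 1.59 in 3BKO and -0.10 in WT. Sall4, a zinc finger factor of the pluripotency network, had 0.71 and 0.05. Lin28a, which blocks let-7 maturation, had -2.25 and -0.93. Its paralogue Lin28b had -2.09 and -0.64, but 19.1 CPM in batch 2 of 3BKO day 9 against 1.64 in batch 1. Among members outside the naming rule, given because they define pluripotency, Pou5f1 had -1.74 in 3BKO and -2.08 in WT, and Sox2 0.09 and -0.71.

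Primed epiblast genes were split. Of 12 measured, 2 were higher and 5 lower (against 12.7% and 13% of all measured genes), with a median of -0.88 in 3BKO and -0.07 in WT. Fgf5, the growth factor that marks the primed state, went from 33.7 to 4.56 CPM in 3BKO (-2.64), with 89.1% of the day 9 reads in 1 cell, and from 36.2 to 62.7 in WT (0.78). Lefty1, a secreted inhibitor of Nodal, had cell medians of 677 and 113 CPM and a log2 ratio of -2.29 (-0.56 in WT). Nodal itself was higher, at 150.5 and 334.7 CPM (1.15; -0.26 in WT), as was Otx2, the epiblast homeodomain factor (1.53; 0.79 in WT). Pim2, a kinase, was -2.03 in 3BKO and 1.83 in WT. Zic2 was low throughout, with 5.31 and 0.356 CPM (-2.22).

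Most measured ectoderm genes were lower in 3BKO at day 9 than at day 3. Of 24 listed, 9 were measured, 0 higher and 6 lower (against 12.7% and 13% of all measured genes). The median log2 ratio was -2.30. WT had 10 measured, 2 higher and 2 lower (against 11.4% and 7.99%), and a median of 0.18. Summed, the list changed less, from 909 to 576 CPM in 3BKO and from 638 to 611 in WT. The per-cell sum had medians of 843 and 503 CPM in 3BKO and 564 and 447 in WT. The 3BKO median at day 9 was thus not below that of WT in batch 1. In batch 2 of day 9 the medians were 192 CPM in 3BKO and 382 in WT. Ina, a neuronal intermediate filament, had 0, 196 and 602 CPM per cell at day 3 and 0, 0 and 542 at day 9 in 3BKO, so most day 9 cells had none. It was lower in WT too, with log2 ratios of -2.30 and -1.79. Sox1, an early neural factor, went from 17 CPM to 0 in 3BKO, at least 79.6-fold lower, and from 6.13 to 5.20 in WT. Gbx2 went from 32.4 CPM to 0, at least 151-fold lower, and was lower in WT as well (-2.76). In batch 2 of 3BKO day 9, Sox1 was again at 0 and Gbx2 at 1.29 CPM.

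Nnat, a neuronal membrane protein from an imprinted gene, had -4.04 in 3BKO and 0.19 in WT. Sox11 had -3.15 and 0.96. Pax6, the eye and forebrain regulator, had -2.01 and 1.83, although its WT ratio was -0.97 with batch 2 on both days. Tubb3 and Stmn2, cytoskeletal genes of neurons, moved little, with 0.18 and -0.17 in 3BKO. The share of ectoderm-positive cells was 47 of 54 at day 3 (87.04%, 75.1 to 94.6%) and 17 of 46 at day 9 (36.96%, 23.2 to 52.5%). In WT it was 37 of 54 (68.5%) and 32 of 60 (53.3%). The day 9 value in 3BKO was 15.2% when 5 reads a gene were required and 10.9% with 4 genes, and the day 3 values were 59.3% and 68.5%, so the lower share at day 9 held under each.

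**Figure D3:**
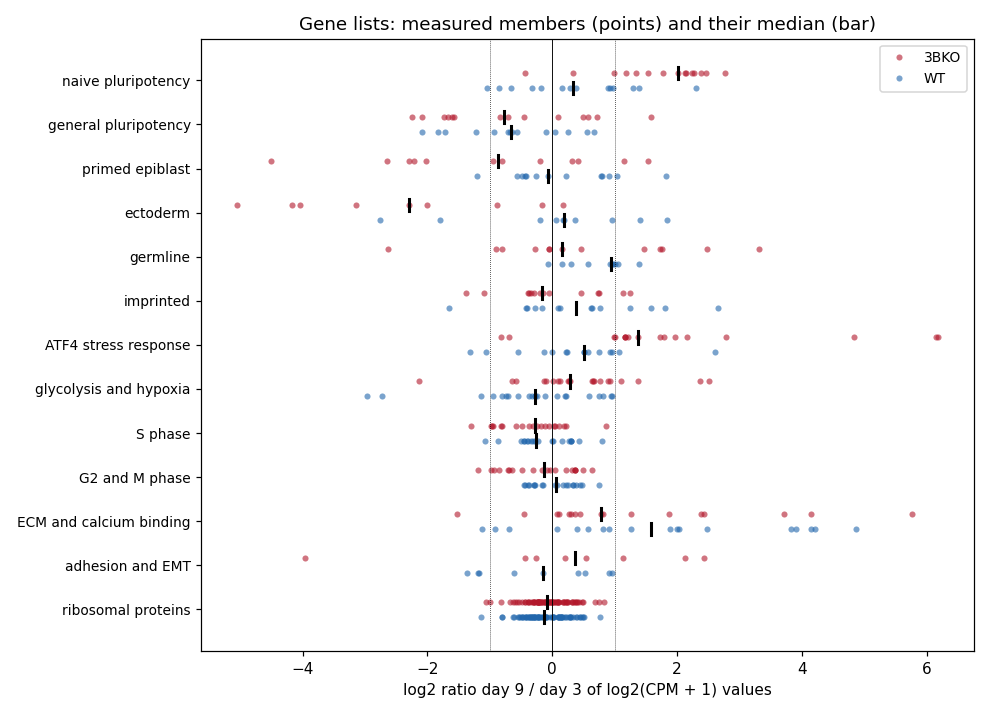
Log2 ratio of day 9 to day 3 (x axis) of each measured member of 13 gene lists (rows) in 3BKO and WT, with the median as a black bar and dotted lines at 2-fold. The bars for naive pluripotency (2.01 against 0.33), ectoderm (-2.30 against 0.18) and ATF4 stress response (1.38 against 0.50) are among those that differ between 3BKO and WT.

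Markers of meso-endoderm and of later lineages were scarce in both genotypes. Of 22 meso-endoderm genes, 3 were measured in 3BKO. Krt19, a simple-epithelium keratin, had 5.00 in 3BKO and 5.71 in WT, where 1 cell held 94.6% of the day 9 reads. Snai1, a repressor of E-cadherin, had 2.89 and 1.81 (-0.70 in WT batch 2; 84.2% of the WT day 9 reads in 1 cell), and Eomes -0.23 and -0.38. Msgn1 had no read in any of the 4 groups. The share of meso-endoderm-positive cells was 1 of 54 and 1 of 46 in 3BKO and 2 of 54 and 5 of 60 in WT, too few cells to tell the days or genotypes apart.

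Of 13 visceral and parietal endoderm genes, 3 were measured, among them Col4a1 (2.06) and Apoe (-0.03). Afp had no read. Positive cells numbered 3 of 54 at day 3 and 7 of 46 at day 9 (15.2%, 6.34 to 28.9%) in 3BKO and 1 of 54 and 2 of 60 in WT. Of the cardiac, endothelial and blood genes, Pecam1, an adhesion protein also made by naive stem cells, had 2.56 in 3BKO and 1.61 in WT (-0.83 in WT batch 2), and Myl7 had 0.45 and 1.53. No 3BKO cell at day 9 was positive for that list (0 of 46, and 3 cells, the limit taken for a count of 0, would be 6.52%). The 1 measured gene of the trophoblast list was Tfap2c, a factor shared with germ cells and naive stem cells, with 5.72 and 116.1 CPM (4.12; 3.25 in WT). Cdx2 had no read.

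Some germline genes were higher at day 9. Of 22 listed, 13 were measured in 3BKO, 5 higher and 1 lower (against 12.7% and 13% of all measured genes), with a median of 0.15. In WT 10 were measured, 3 higher and 0 lower (against 11.4% and 7.99%), with a median of 0.94. Stra8, the retinoic acid responsive gene of meiotic entry, had 0, 0 and 589 CPM per cell at day 3 and 0, 135 and 1135 at day 9 in 3BKO, and medians of 0 on both days in WT. Its log2 ratio was 3.31 in 3BKO and 2.56 in WT. Rpl10l, the testis copy of a ribosomal protein gene, was read in 44.4% and 93.5% of thinned 3BKO cells and in 48.1% and 48.3% of WT cells (2.49 and 1.39). Mael, of the piRNA pathway, went the other way (-2.63; 0.30 in WT), although the difference between genotypes was 0.14 with WT batch 2 on both days. With the day 9 cells of batch 2 the list median was 1.09 in 3BKO.

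Germline-positive cells were 19 of 54 at day 3 (35.2%, 22.7 to 49.4%) and 38 of 46 at day 9 (82.6%, 68.6 to 92.2%) in 3BKO, against 14 of 54 (25.9%) and 24 of 60 (40%, 27.6 to 53.5%) in WT. The day 3 shares depended on the setting. Without thinning, 3BKO had 66.7% at day 3 and 89.1% at day 9, and WT 64.8% and 53.3%. With 5 reads a gene required, 3BKO had 5.56% and 56.5%, and WT 1.85% and 8.33%. The day 9 share was higher than the day 3 share in 3BKO under both, whereas in WT the direction turned without thinning. None of the 11 genes of the X-linked Rhox homeobox cluster was measured. Their reads summed to 3.82 CPM at day 3 and 70.7 at day 9 in 3BKO, 1 cell holding 38.97% of the latter, and to 33.8 and 27.1 in WT.

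Imprinted genes showed little common movement, with 14 measured, 2 higher and 2 lower, near the 12.7% and 13% of all measured genes, and a median of -0.17 in 3BKO and 0.38 in WT. Slc38a4, an amino acid transporter, had 1.25, Grb10, a brake on insulin signalling, -1.38, and Cdkn1c, a cell cycle inhibitor, -1.09. Mirg, an RNA of the Dlk1-Dio3 region, was low at 2.57 and 6.84 CPM, and at 0.246 CPM in batch 2 of day 9.

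The genes furthest apart between days in 3BKO were next listed, leaving out any with over 30% of the reads of its higher day in 1 cell. The highest was Alox12e, an epidermal-type lipoxygenase, with 0.332 CPM at day 3 and 108.1 at day 9 (6.36, interval 5.81 to 6.72). Single cells had 0, 0 and 20.1 CPM at day 3 and 0, 9.21 and 732 at day 9, and 47.8% of day 9 cells held a read after thinning. In WT it went from 0 to 5.82 CPM, 1 cell holding 99.2% of the day 9 reads. Alox12b, a related enzyme, went from 0 to 46.95 CPM, at least 189-fold higher, and from 0 to 3.02 in WT, 71.01% of the reads in 1 cell. Of the 7 lipoxygenase genes listed, these 2 were the ones measured. Batch 2 of 3BKO day 9 had 84.1 CPM of Alox12e and 43.2 of Alox12b, against 6.44 and 0 in WT.

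Fxyd2, a regulator of the sodium pump, was read in 82.6% of thinned day 9 cells, with 0, 0 and 89.6 CPM per cell at day 3 and 0, 177 and 1224 at day 9 (5.76; 4.22 in WT). Calcoco2, an autophagy receptor, had a cell median of 0 at day 3 and 191 at day 9 (5.27; 3.05 in WT, with 74.7% of the day 9 reads in 1 cell). Ddr2, a collagen receptor kinase, had 5.51 and 2.68, 1 cell holding 51.7% of the WT day 9 reads. Gpx2, a glutathione peroxidase, was at 0 at day 3 and at least 201-fold higher at day 9. Fbp2, the muscle fructose bisphosphatase, was at least 176-fold higher, and Slc6a12, a betaine and GABA transporter, at least 154-fold. Ly6g6e and Nptx1, a neuronal pentraxin, were also at 0 at day 3 and at least 125- and 116-fold higher, but Nptx1 had only 1.91 CPM in batch 2 of day 9, against 28.9 in batch 1.

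The lowest gene under the same rule was Vrtn, a regulator of vertebral number. It had 0, 7.60 and 259 CPM per cell at day 3 and 0 in all 46 cells at day 9. Summed, it went from 57.2 CPM to 0, at least 267-fold lower, and was again at 0 in batch 2. In WT it went from 36.6 to 30.3 CPM. Lpl, lipoprotein lipase, went from 21.7 CPM to 0, at least 101-fold lower, but had 6.15 CPM in batch 2. Car14, a membrane carbonic anhydrase counted among the primed genes, went from 64.2 to 1.85 CPM (-4.51) and in WT from 47.2 to 98.2 (1.04).

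Ptk7, a receptor of planar cell polarity, had -4.50 in 3BKO and -2.34 in WT. Tubb2b, a neuronal tubulin, had -4.18 and -3.23, so these were lower in both genotypes, whereas Cntfr (-4.89), Rtn1 (-4.75), Prtg (-4.46) and Cnpy1 (-4.32) had ratios between -0.39 and 0.16 in WT. Rtn1 had 11.6 CPM in batch 2 of 3BKO day 9, against 0.0712 in batch 1.

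The change itself was ranked among genes eligible under the naming rule. It differed most, in the positive direction, for Fbp2 (6.53), Slc6a12 (6.24), Pou2f3 (5.17), Arhgef16 (4.98), Ovol2 (4.96), Rnf39 (4.72), Rab25 (4.59) and Col4a1 (4.44). Several of these rest on WT, and 1 WT cell held 98.6% of the day 3 reads of Fbp2, all those of Slc6a12 and 86.2% of those of Col4a1. Rnf39 went from 1.58 to 2.78 CPM in 3BKO and from 19.4 to 0.131 in WT. Col4a1, a basement membrane collagen, turned round, to -2.62, when WT batch 2 was used for both WT days. Pou2f3, a POU factor of tuft cells, and Ovol2, a repressor of mesenchymal genes, went from 0 and 0.995 CPM to 10.8 and 23.5 in 3BKO. The WT ratios of Fbp2 and Ovol2 were 2.17 and 2.32 in batch 2, against -1.05 and -1.34 in batch 1. Rab25, an epithelial trafficking GTPase, went from 1.66 to 33.2 CPM in 3BKO and from 27.1 to 14.04 in WT.

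In the negative direction, beside Vrtn (-5.59), Car14 (-5.56), Rtn1 (-4.91) and Lpl (-4.73), stood Mapk12 (-5.43), Rprm (-5.23), Vim (-4.92) and Hspb11 (-4.86). Vim, the mesenchymal intermediate filament, had 0, 273 and 1111 CPM per cell at day 3 and 0, 0 and 336 at day 9 in 3BKO, and 4.35% of day 9 cells exceeded the day 3 median. In WT it had 0, 80.1 and 839, then 0, 45.2 and 3829. It was at 3.45 CPM in batch 2 of 3BKO day 9. Hspb11, at 4.06 and 0 CPM in batch 1 of 3BKO, had 4.92 in batch 2 of day 9. Mapk12, a p38 kinase, went from 16.1 CPM to 0, at least 75.3-fold lower, and in WT from 16.2 to 42.3. In batch 2 it had 6.46 CPM in 3BKO at day 9, and 14.1 and 16.98 in WT at day 3 and day 9, so neither the absence in 3BKO nor the higher day 9 level in WT was as marked there.

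The adhesion and epithelial-mesenchymal list held Vim with 7 other measured genes, of which 3 were higher (against 12.7% of all measured genes). Cldn4 and Cldn6, tight junction claudins, had 2.43 and 2.12 in 3BKO and 0.91 and 0.41 in WT. Zeb1, a repressor of epithelial genes, had -0.44 and 0.52. The list median was 0.37 in 3BKO and -0.15 in WT.

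Targets of the amino acid stress factor ATF4 were higher at day 9 in batch 1. Of 17 measured in 3BKO, 13 were past 2-fold higher and 0 lower (against 12.7% and 13% of all measured genes). The median was 1.38. In WT, 2 were higher and 2 lower of 15 (against 11.4% and 7.99%), with a median of 0.50. Chac1, a glutathione-degrading enzyme, went from 2.90 to 283.5 CPM (6.19), 1 cell holding 30.5% of the day 9 reads. Nupr1, a stress-induced chromatin protein, had 6.15 in 3BKO and 5.45 in WT. Trib3, a pseudokinase induced by ATF4, had 4.83 and 0.22. Asns, asparagine synthetase, had cell medians of 102 and 670.1 CPM in 3BKO and 106 and 132 in WT (2.78 and 1.07), and Mthfd2, a mitochondrial folate enzyme, had 2.15 and 0.57. Slc7a11 and Sesn2 had -0.83 and -0.69.

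The spread between day 9 cells was wide. The list summed to 677, 1583 and 3706 CPM per cell at day 3 and to 601, 3171 and 30048 at day 9, 19 of 46 day 9 cells lying above the highest day 3 cell. In batch 2 of 3BKO day 9 the median cell had 1804 CPM, and the median log2 ratio of the list against the same day 3 cells was -0.09. The 2 batches of day 9 thus differ in this list. The WT medians were 1594 and 1567 CPM in batch 1.

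**Figure D4:**
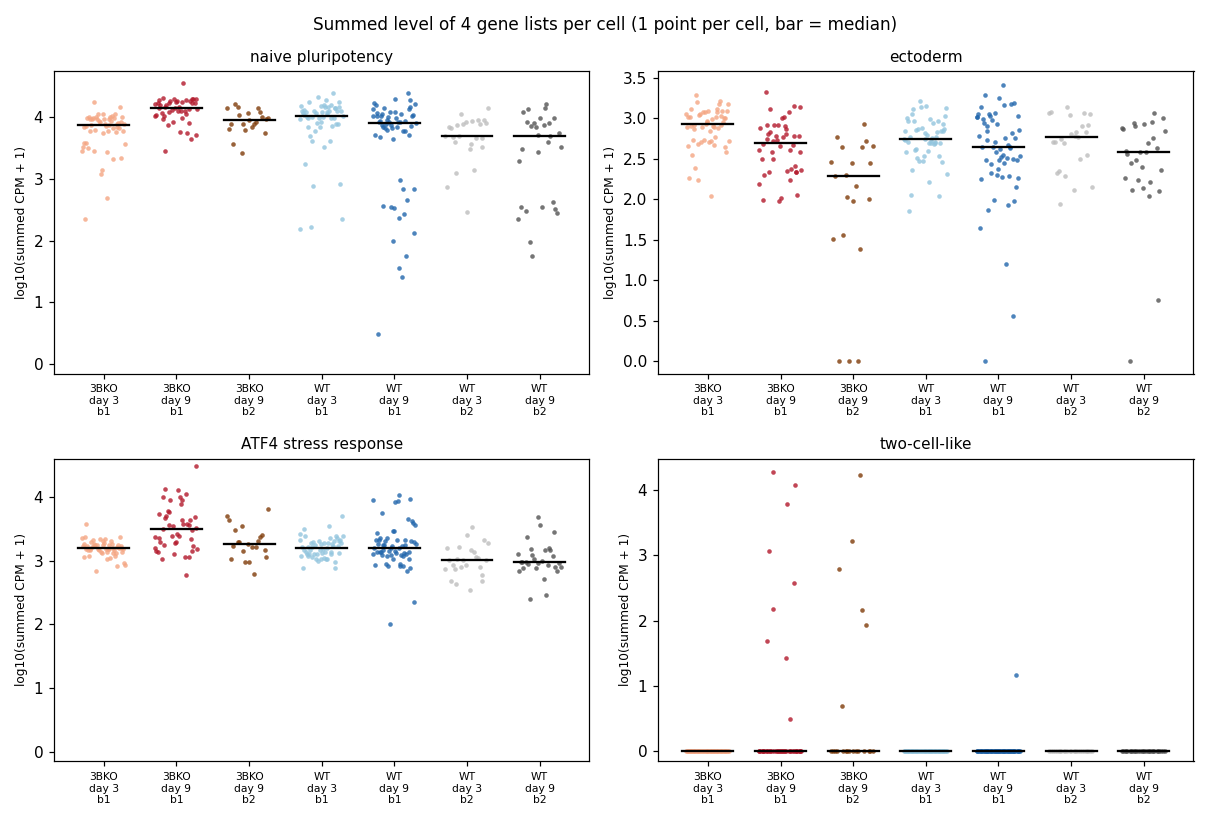
Summed CPM of 4 gene lists in single cells (y axis, log10 of CPM + 1; 1 point per cell, bar at the median) for 7 groups of genotype, day and library batch (b1, b2). A tail of WT cells at day 9 has few naive reads and 3BKO cells at day 9 have no such tail, though some day 3 cells are low. High ATF4 sums stand in batch 1 of 3BKO day 9, and two-cell-like reads occur in 9 of 46 and 6 of 21 3BKO cells at day 9.

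A minority of 3BKO cells at day 9 carried transcripts of the two-cell-like state, a transient state of stem cell cultures named after the 2-cell embryo and marked by the Zscan4 cluster. No gene of this list of 10 reached the detection threshold. Without thinning, reads were seen in 9 of 46 cells, with 0 of 54 cells at day 3 (a limit of 3 cells would be 5.56%). In WT they were seen in 0 of 54 cells at day 3 and 1 of 60 at day 9. Depth differed, with median reads of 215104 at day 3 and 302116 at day 9 in 3BKO, and 211599 and 363538 in WT. In 3BKO at day 9 these reads summed to 824 CPM, 1 cell holding 50.4% of them. The cells with reads ranged from 2.16 to 18633 CPM, so some held very few. In batch 2, 6 of 21 3BKO cells and 0 of 29 WT cells had such reads at day 9, at median depths of 692321 and 374958 reads. The Zscan4 genes are near-identical copies and reads mapping to several places were not counted, so the split among them is uncertain.

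Of 21 measured glycolysis and hypoxia genes, 4 were higher and 1 lower (against 12.7% and 13% of all measured genes), with a median of 0.29 (-0.28 in WT). Pfkp, the platelet phosphofructokinase, had 0, 274 and 1925 CPM per cell at day 3 and 349.6, 1268 and 4393 at day 9, all day 9 cells lying above the day 3 median (2.37; 0.96 in WT). Ankrd37, a hypoxia target, had 2.51, 1 cell holding 51.3% of the day 9 reads. Pdk1, which restrains pyruvate entry into mitochondria, had -2.13 and -1.14.

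Of 17 measured genes of extracellular matrix and calcium binding, 7 were higher and 1 lower in 3BKO (median 0.79). In WT, 10 were higher and 1 lower of 18 (median 1.58). Over all measured genes, 12.7% were higher and 13% lower in 3BKO, and 11.4% and 7.99% in WT. S100a6 had 4.14 and 3.91, Spp1, osteopontin, 2.39 and 2.03, Serpinf1 3.71 and 3.82 (53.4% of the 3BKO day 9 reads in 1 cell), and S100a11 2.43 and 1.27, while Col18a1 had -1.52 and -1.13. The differences of these ratios, 3BKO minus WT, were 0.24 for S100a6, 0.35 for Spp1, -0.11 for Serpinf1, 1.16 for S100a11 and -0.39 for Col18a1.

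Cell cycle genes moved little in sum. Over all measured genes, 12.7% were higher and 13% lower in 3BKO. Of 20 S phase genes, 0 were higher and 1, the chromatin assembly gene Chaf1b (-1.30), lower, and of 20 genes of G2 and M phase 0 were higher and 1, the mitotic kinase gene Bub1 (-1.19; 0.41 with batch 2 of day 9), lower, with medians of -0.28 and -0.12. The highest ratios were those of Slbp (0.87), which binds histone mRNA, and Ube2c (0.63), a ubiquitin enzyme of mitotic exit. Per cell, however, the G2 and M sum had a median of 5137 CPM at day 3 and 2067 at day 9 in 3BKO, with maxima of 13678 and 22492, and medians of 4072 and 3443 in WT. The S phase sum per cell had medians of 6382.5 and 4078.4 CPM in 3BKO, and 6354.7 and 5669.8 in WT. Of 78 measured ribosomal protein genes, 0 were higher and 1, Rps12 (-1.05), lower, with a median of -0.08. The median was -1.01 with the day 9 cells of batch 2, in which the median mitochondrial share was 11.2%.

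The counting options listed in the study's methods name no strand setting, so reads of a gene and of its opposite-strand neighbour cannot be told apart. Among the genes named here, Dnmt3a (with Dnmt3aos), Dnmt3l (Aire), Car14 (Aph1a), Ina (Nt5c2), Col4a1 (Col4a2), Otx2 (Otx2os1), Tdg (Glt8d2), Xist (Tsix), Ube2c (Tnnc2), Pfkp (Pitrm1), Ly6g6e (Ly6g6d), Ankrd37 (Lrp2bp and Ufsp2), Tet2, Ddr2, Gbx2, Ovol2, Lin28a, Sall4, Pou5f1, Nnat, Eomes, Cdkn1c, Slbp and Zeb1 share exon bases with an opposite-strand gene in GENCODE vM21, and their values are uncertain to that extent. Sox1, Tfcp2l1, Spp1, Rps12 and Mirg share exon bases with a gene on their own strand.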

How the data were processed

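The authors deposited 1 table of read counts per gene name and cell, not normalized. Per the labels and the study's methods, reads were trimmed with Trim Galore 0.5.0, aligned to GRCm38.p6 with STAR 2.7.1a and counted over exons with featureCounts 1.6.1, leaving out reads that map to several places. The table held 55228 gene names and 550 cells, and 26 further columns without a sample were not used. No 2 cell columns were identical. Wells were sorted with 1 cell each, and doublets were not called. Groups came from the labels. Retained cells were summed per group and scaled to CPM. Shares of cells were taken after thinning to 50000 reads, with exact Clopper-Pearson intervals at 95%, and a count of 0 was given a limit of 3 counts per group. The script was tested on simulated data. Alternatives used edgeR 4.0.16 (TMM) and DESeq2 1.42.0 size factors (R 4.3.3) for scaling only.

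Genes were named by rule: the methylation genes and the Y-linked genes with Xist, the 12 highest and 12 lowest 3BKO log2 ratios, the 8 most positive and 8 most negative differences (at least 10 CPM and at most 30% of reads in 1 cell), and the 2 highest, 2 lowest and all past 4-fold in each list. Mitochondrial genes and unnamed gene models (Gm, Rik, clone or accession and -ps names) were left out of the rankings of 12 and 8. Not every gene picked by this rule is reported here. Members and lists were chosen with earlier results of these data known. Positions came from GENCODE vM21 (GRCm38), which held 97% of the gene names, and promoters from RefSeq, matched by symbol for 97 of 120 named genes.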

Additional observations from a re-analysis of the deposited data

Results flagged for a closer look

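The genes below were past 2-fold in opposite directions in 3BKO and WT, so that the log2 ratios of day 9 to day 3 differed in sign. They are examples from the named genes and not all such genes. Over genes measured in both genotypes, 31 were higher in 3BKO and lower in WT, and 80 the reverse. Fbp2 and Pou2f3, named above but not measured in WT, also met this fold. With 1 library group per genotype and day the difference was not tested. Values are 3BKO minus WT. Dnmt3l differed by 3.78, being higher at day 9 in 3BKO alone. Car14 (-5.56), Mapk12 (-5.43), Hspb11 (-4.86), Pim2 (-3.85) and Pax6 (-3.84) were lower at day 9 in 3BKO and higher in WT. In batch 2 of day 9, 3BKO had 170 CPM of Dnmt3l and WT 35.3, 3BKO had 0.123 CPM of Car14 and WT 78.97, and 3BKO had 6.95 CPM of Pim2 and WT 387. Hspb11 was low in 3BKO on both days of batch 1 (4.06 and 0 CPM) and at 4.92 CPM in batch 2. Mapk12 had 6.46 CPM in 3BKO and 16.98 in WT at day 9 of batch 2, with 14.1 in WT at day 3 of batch 2. Pax6 in WT day 9 had 34.5 CPM in batch 1 and 7.19 in batch 2.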

How the results depend on the processing

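Of 86 named genes past 2-fold in 3BKO, 86 kept their direction under every alternative within batch 1. That outcome was nearly fixed in advance. Most of these genes were named for large ratios in the same cells, and the alternatives refilter or rescale the same counts. When batch 2 supplied the day 9 cells, 82 kept their direction, 78 of them past 2-fold. Batch 2 does not separate day or genotype from plate, since its WT cells lay on the plates of batch 1. Without replicates, the limits are 1 library group per genotype and day, plates that follow genotype and day, and 46 to 60 cells per group. No paired analysis was possible because the labels give no replicate number shared between groups.

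A pseudocount of 10 CPM, which by construction shrinks low genes, left 731 higher and 556 lower genes in 3BKO, 539 and 256 in WT, and 496 and 785 past 2-fold in the difference, with medians of -1.32 for ectoderm and 1.28 for meso-endoderm. Detection in 40% of cells, which tests fewer genes, left 870 higher genes in 3BKO, 758 in WT and 713 more positive in the difference, and a germline median of 1.74. Detection in 10% of cells gave 1.24 for visceral and parietal endoderm. The meso-endoderm median, over 3 genes, was 0.97 with no cell filter and 3.52 without the top cell of each gene.

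With the day 9 cells of batch 2, whose day 3 cells stayed those of batch 1, 2086 genes were higher and 2567 lower in 3BKO and 2035 and 1686 in WT. List medians in 3BKO were then -2.06 for methylation genes, 2.16 for meso-endoderm, -0.052 for visceral and parietal endoderm, 1.09 for germline, -0.090 for the ATF4 list (reversed), -0.41 for glycolysis and -1.01 for ribosomal proteins. WT from batch 2 on both days gave 1848 higher genes. The cause of these changes was not tested.

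Single log2 ratios that reversed with the day 9 cells of batch 2 were, in 3BKO, Hspb11 (0.23), Lin28b (0.84), Mirg (-1.52) and Bub1 (0.41). In WT they were Gpx2 (-0.98), Nptx1 (-1.56), Ovol2 (0.72), Col4a1 (2.00), Pax6 (-0.28), Snai1 (-1.33) and Pecam1 (-0.33). In the difference they were Col4a1 (-0.75), Myl7 (0.52) and Mael (1.32). With WT batch 2 on both days, the WT ratios reversed for Gpx2 (-1.80), Fbp2 (2.17), Ovol2 (2.32), Col4a1 (4.68), Pax6 (-0.97), Snai1 (-0.70), Pecam1 (-0.83) and the trophoblast median (1.24), and the differences for Col4a1 (-2.62), Lin28a (0.19) and Mael (0.14). The WT trophoblast median was 1.09 with no cell filter, the WT ratio of Fbp2 was 2.62 without its top cell, and the difference of Sycp1 was 0.37 after thinning.

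Ectoderm-positive 3BKO cells at day 3 were 98.1% without thinning, 59.3% with 5 reads a gene and 68.5% with 4 genes, and at day 9 15.2% and 10.9% under the latter pair. Meso-endoderm-positive cells at day 9 were 0% under both.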
